A study of Mus musculus with 24 samples.

Results

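Cholesterol is made from acetyl-CoA by way of mevalonate and squalene. This account covers the section of the pathway from squalene to cholesterol in mouse liver, as represented by 9 genes: Fdft1, Sqle, Lss, Cyp51, Tm7sf2, Msmo1, Nsdhl, Hsd17b7 and Dhcr7. Every probe set that the array's annotation assigned to exactly 1 symbol, where that symbol was 1 of these 9, was taken. This gave 9 of the 18193 genes measured by name, and 20 of the 45037 probe sets that were tested, with 4 for Fdft1, 1 for Sqle, 3 for Lss, 3 for Cyp51, 1 for Tm7sf2, 2 for Msmo1, 1 for Nsdhl, 4 for Hsd17b7 and 1 for Dhcr7. The rule uses no measured value, though the members were chosen with earlier results of these data known. The brightest probe set by mean over the 24 columns stood for each gene.

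Livers came from 18 male C57BL6J mice, 6 per diet, with 1 expression array per mouse. HF+P mice ate a 45% high-fat diet that held 5% powdered propagules of Japanese yam, the plant's small aerial tubers. HF mice ate the high-fat diet without the powder, and LF mice ate a low-fat diet. Every group was acclimated on the low-fat diet, stayed on its own diet for 4 weeks with free access to food, and was starved for 16 h before dissection. The labels give no genetic change in any group. Nothing in them says how the mice were housed together. The p-values set a difference against the spread between these arrays, in the values as deposited.

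Squalene synthase, encoded by Fdft1, joins a pair of farnesyl diphosphate molecules into squalene and is the step that commits the pathway to sterols. Squalene epoxidase and lanosterol synthase then oxidise the chain and fold it into lanosterol. The remaining enzymes strip methyl groups from the sterol rings and reduce their double bonds, and most of them sit in the membrane of the endoplasmic reticulum. Hepatocytes are a main site of this synthesis. The genes are textbook targets of the transcription factor SREBP-2, which is held back in the endoplasmic reticulum while sterols are plentiful and acts on promoters together with NF-Y and Sp1.

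The array values were deposited on a scale that was handled as log2, and they differ very little between mice. The SD over the 12 columns of a comparison had a median of 4.17e-06 over all probe sets when HF was set with LF. Differences on this scale were not read as fold changes. Sizes are standardized differences, that is, HF minus LF, or HF+P minus HF, over the pooled SD within groups, with a 95% interval. The 6 HF arrays were processed by the authors once with LF and again with HF+P, so HF has a value in each of 2 value sets and each comparison stays within its own set. The hepatocyte markers Alb, Apoa1, Ttr, Tat, Cps1 and Cyp2e1 all had levels above the 90th percentile of probe sets, and 0 of them were called in either comparison.

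HF against LF addresses what high-fat feeding did. Transcripts of the enzymes from squalene to cholesterol were higher in HF livers. Of the 20 probe sets 14 rose, 0 fell and 6 did not pass (limma, Benjamini-Hochberg adjusted p below 0.05 over all 45037 probe sets). Of all probe sets 0.269% rose and 0.402% fell. By the probe set that stands for each gene, 8 of 9 genes rose and Hsd17b7 missed the threshold. The median standardized difference was 5.96 over the 9 genes and 3.49 over the 20 probe sets, against 0.015 over all probe sets. In all 9 genes every HF mouse lay above every LF mouse, as was the case in 15 of the 20 probe sets, against 0.644% of all probe sets. The opposite order, with every HF mouse below every LF mouse, was seen in 0 of the 20 and in 0.921% of all probe sets.

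The scaling of the arrays left the 14 rises as the larger side but moved the other side. Quantile normalisation gave 11 probe sets higher and 1 lower, and median centring gave 16 higher and 4 lower. The 4 were Fdft1 1438918_at, Fdft1 1438919_x_at, Lss 1420014_at and Hsd17b7 1440057_at. Their SD over the 12 columns lay at or below the 55.2nd percentile of all probe sets, whereas that of the other 16 lay above the 90th. That SD takes in the difference between HF and LF itself, so the split is a description and not separate evidence. Over all probe sets median centring called 322 higher and 42047 lower, against 121 and 181 as deposited. It took off the 6.45e-05 by which the column medians of HF exceeded those of LF. The median HF minus LF difference over all probe sets was 3.53e-08 as deposited and -6.44e-05 after centring. The column medians thus differed more than most probe sets did, and centring moved most probe sets below 0. By the probe set that stands for each gene, 6 of 9 genes were called higher after quantile normalisation and 9 of 9 with median centring.

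Promoters are shown because the 9 genes differed in the same direction in HF against LF. The motifs of SREBP, NF-Y and Sp1 are known, and whether these factors acted here was not tested. RefSeq windows on build GRCm38.p6, from 250 bases before to 50 bases after the start, were held for 7 of the 9 genes in 9 windows. Fdft1 and Sqle had no entry. Both strands were searched for 3 motifs, TCACNCCAC for SREBP, CCAAT for NF-Y and GGGCGG for Sp1, and 0 of the 30 matches overlapped another. The SREBP letters were in 0 of 7 genes, against 1.44% of all 27025 genes with a window, which says only that these exact letters are not in these windows. CCAAT was in 7 of 7 genes against 41.1% of all genes, and GGGCGG was in 7 of 7 against 38.2%. Promoters differ in base composition and in their number of windows, so these shares are descriptions.

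The 250 bases before the start are printed for the 4 genes with the largest standardized differences in HF against LF. They run 5′ to 3′ on the gene's own strand, and capitals mark CCAAT for NF-Y and GGGCGG for Sp1, on either strand.
Msmo1, minus strand, chr8:64733579-64733828: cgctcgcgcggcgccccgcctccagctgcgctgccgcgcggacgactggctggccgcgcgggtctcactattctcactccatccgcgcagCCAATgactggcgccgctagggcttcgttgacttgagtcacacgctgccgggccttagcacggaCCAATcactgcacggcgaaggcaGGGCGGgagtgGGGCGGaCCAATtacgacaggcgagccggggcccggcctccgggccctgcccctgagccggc
Lss, plus strand, chr10:76531355-76531604: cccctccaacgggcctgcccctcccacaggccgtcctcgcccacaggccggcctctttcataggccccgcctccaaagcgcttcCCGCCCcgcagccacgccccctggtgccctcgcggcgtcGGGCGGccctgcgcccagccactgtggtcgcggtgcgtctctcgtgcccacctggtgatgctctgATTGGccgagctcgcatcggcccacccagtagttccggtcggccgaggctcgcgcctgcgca
Cyp51, minus strand, chr5:4104698-4104947: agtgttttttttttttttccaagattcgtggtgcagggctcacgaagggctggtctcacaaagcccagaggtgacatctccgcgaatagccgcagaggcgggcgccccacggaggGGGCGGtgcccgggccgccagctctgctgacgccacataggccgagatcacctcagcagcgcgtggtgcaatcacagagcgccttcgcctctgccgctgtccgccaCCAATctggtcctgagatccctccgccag
Nsdhl, plus strand, chrX:72918271-72918520: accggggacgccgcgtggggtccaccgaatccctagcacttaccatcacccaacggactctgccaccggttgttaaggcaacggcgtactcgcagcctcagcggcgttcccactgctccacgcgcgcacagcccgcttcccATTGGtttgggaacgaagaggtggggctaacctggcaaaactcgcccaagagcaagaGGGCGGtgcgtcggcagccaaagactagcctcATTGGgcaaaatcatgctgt

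Msmo1 held 3 matches to CCAAT and 2 to GGGCGG, Lss 1 and 2, Cyp51 1 and 1, and Nsdhl 4 and 1, counted over the whole window. Hsd17b7, whose representative probe set missed the threshold, held 3 and 3. Tm7sf2 held 1 and 2. Dhcr7 held 1 match to GGGCGG in 1 window, and 2 to CCAAT and 3 to GGGCGG in another. Whether the count of matches goes with the size of the difference was not tested.

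**Figure D1:**
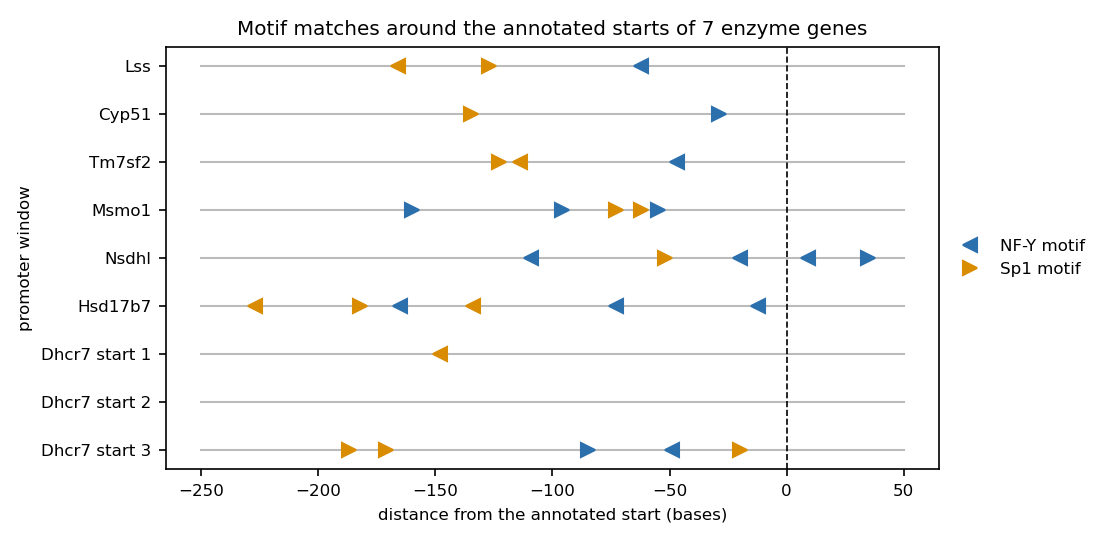
Positions of the NF-Y and Sp1 motif matches in the RefSeq promoter windows of 7 genes, in bases from the transcription start on the horizontal axis, 1 row per window, with triangles that point right for the gene's own strand and left for the other. Every gene has at least 1 match of each kind, and no SREBP match appears in any of the 9 windows.

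Squalene synthase was higher in HF livers by 2 of its 4 probe sets. The deposited value of Fdft1 1438322_x_at was 9.291 at its lowest, 9.293 at the median and 9.293 at its highest in HF mice, against 9.279, 9.285 and 9.286 in LF mice. The groups did not overlap, and LF mouse 1 was the lowest. The standardized difference was 3.85 (1.86 to 5.78 at 95%, 6 mice a group, adjusted p = 0.00956 by limma with Benjamini-Hochberg adjustment). The second probe set, 1448130_at, rose by 4.58 (adjusted p = 0.00400 by the same fit). The remaining pair, 1438918_at and 1438919_x_at, had values of -0.67 and 0.04 and did not pass.

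Sqle encodes squalene epoxidase, a rate-limiting oxygenase of the sterol branch, and the HF group was also the more variable here. Its values were 6.975, 6.996 and 7.006 (lowest, median and highest) in HF mice, against 6.924, 6.931 and 6.932 in LF mice. The lowest HF mouse exceeded the highest LF mouse. The difference was 5.96 SDs (3.17 to 8.71; limma, Benjamini-Hochberg adjusted p = 0.000694), and the SD within HF was 4.33 times that within LF. In Fdft1 1438322_x_at the SD ratio ran the other way, at 0.304.

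Lss, whose product closes the sterol rings to form lanosterol, was among the most clearly separated genes. Lss 1420013_s_at read 7.3489, 7.3490 and 7.3493 in HF mice, against 7.3454, 7.3461 and 7.3463 in LF mice. The gap between the groups was wider than the range of either. Its difference was 9.997 SDs (5.56 to 14.4; limma, Benjamini-Hochberg adjusted p = 1.60e-05). Lss 1426913_at rose by 4.21 (adjusted p = 0.00586), and 1420014_at, at 0.77, did not pass.

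Cyp51, the cytochrome P450 that removes a methyl group from lanosterol, rose by all 3 of its probe sets. Cyp51 1450646_at read 7.381, 7.386 and 7.389 in HF mice, against 7.341, 7.346 and 7.355 in LF mice. Again no mouse of either diet lay within the range of the other. The difference was 8.84 SDs (4.88 to 12.8; limma, Benjamini-Hochberg adjusted p = 2.88e-05), and the others rose by 8.17 (1422533_at) and 3.70 (1422534_at). The value of 1422534_at depended on the scaling, with 1.31 after quantile normalisation, which did not pass (adjusted p = 0.112), and 1.604 with median centring, which did (0.00881). LF mouse 8 was the highest LF mouse by a wide margin in those other probe sets, at 6.578 in 1422533_at against 6.566 to 6.570 in the other LF mice.

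Tm7sf2, a reductase of a ring double bond whose reaction the lamin B receptor can also carry out, rose less. Its values were 10.7529, 10.7532 and 10.7537 in HF mice, against 10.7518, 10.7522 and 10.7526 in LF mice. The groups lay apart, by less than the range within HF. The difference was 3.27 SDs (1.48 to 5.00; limma, Benjamini-Hochberg adjusted p = 0.0211). The call was lost without LF mouse 3 (adjusted p = 0.0553) or LF mouse 5 (0.0595), and after quantile normalisation the difference was 0.53 (0.512).

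Msmo1 and Nsdhl work in sequence with Hsd17b7 to remove a pair of methyl groups, Msmo1 as the oxygenase, Nsdhl as the dehydrogenase and decarboxylase, and Hsd17b7 as the ketone reductase. Msmo1 1423078_a_at had the largest standardized difference of the 9 genes and the widest deposited difference, ranked 3 among all probe sets by size. It read 8.351, 8.398 and 8.428 in HF mice, against 8.111, 8.132 and 8.161 in LF mice. The lowest HF mouse, number 4, stood far above the highest LF mouse, number 4 as well. The difference was 10.1 SDs (5.61 to 14.6; limma, Benjamini-Hochberg adjusted p = 1.60e-05). The dimmer probe set 1459627_at, at 2.09, did not pass (0.102).

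Nsdhl 1416222_at read 7.901, 7.902 and 7.904 in HF mice, against 7.892, 7.893 and 7.895 in LF mice, with no overlap. It rose by 6.90 SDs (3.73 to 10.04; limma, Benjamini-Hochberg adjusted p = 0.000220). Hsd17b7 was the least certain step of this trio. Its representative 1457248_x_at read 8.9021, 8.9022 and 8.9025 in HF mice, against 8.9016, 8.9019 and 8.9020 in LF mice. The ranges did not overlap, but the difference of 2.61 SDs (1.04 to 4.11) had an adjusted p of 0.0529 (limma, Benjamini-Hochberg). Hsd17b7 1417871_at and 1448865_at rose by 2.94 and 2.99 (0.0344 and 0.0313), while 1440057_at, at 0.40, did not pass. Of the 12 fits without 1 mouse, the first call was kept only in those without HF mouse 1 or 8, and the second only without HF mouse 1, 2 or 4. After quantile normalisation 1448865_at had a value of -1.15 and 1457248_x_at of 0.82, neither of which passed, and 1417871_at had 1.90 (0.0342).

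Dhcr7, the last reductase on the route through dehydrocholesterol, had the smallest difference among the 8 genes that rose. It read 7.7099, 7.7104 and 7.7107 in HF mice, against 7.7094, 7.7096 and 7.7098 in LF mice. The lowest HF mouse was just above the highest LF mouse. The difference was 2.84 SDs (1.20 to 4.42; limma, Benjamini-Hochberg adjusted p = 0.0398). The call was lost in 11 of the 12 fits that left out 1 mouse, with adjusted p between 0.0522 and 0.0934, and was kept without HF mouse 8. After quantile normalisation the difference was 1.67 and did not pass (0.0521).

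**Figure D2:**
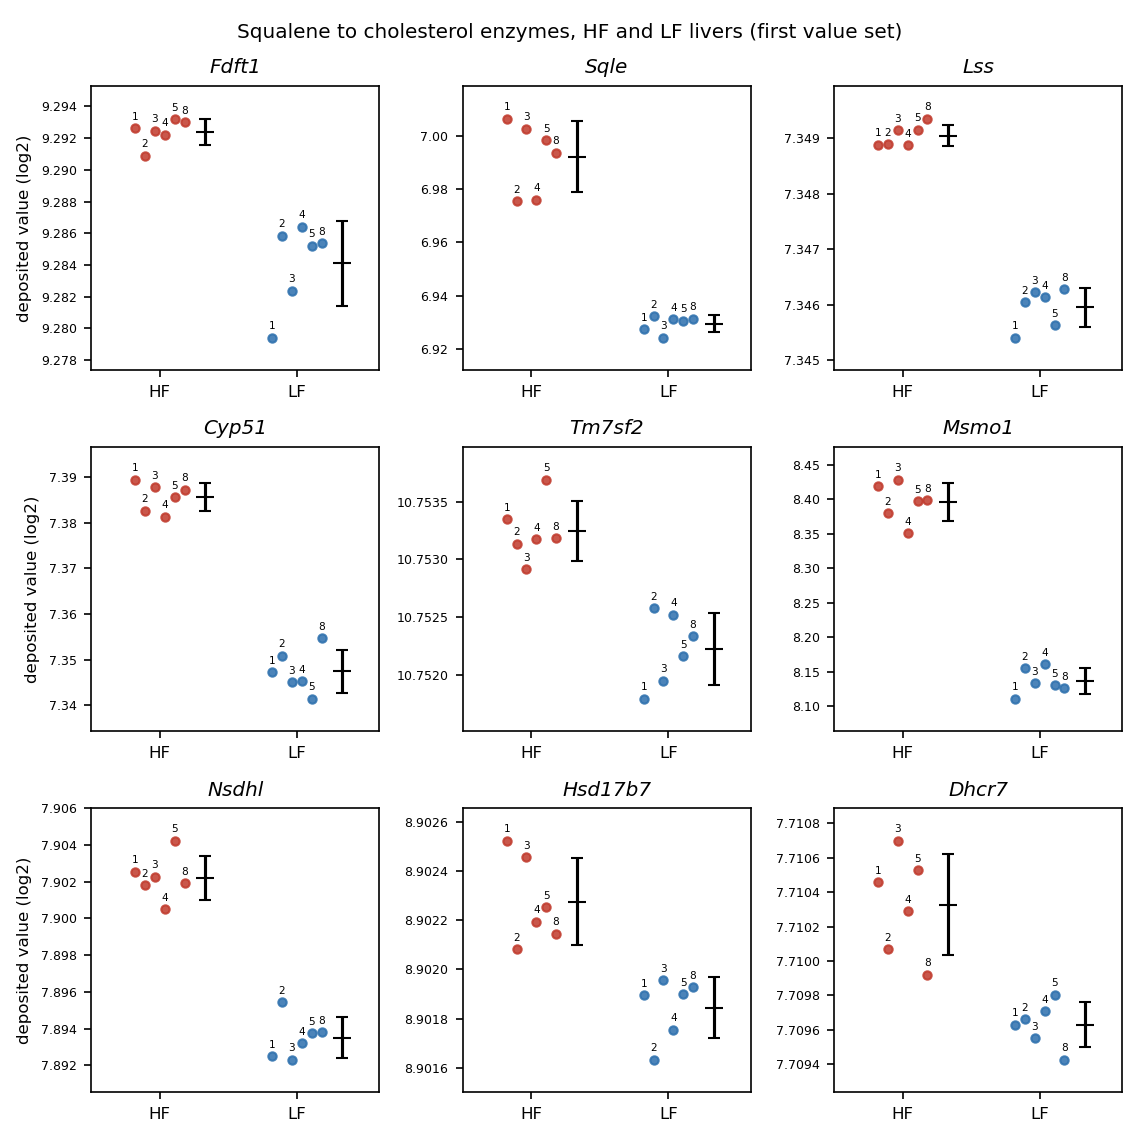
Deposited log2 value of each mouse for the probe set that stands for each of the 9 genes, HF on the left and LF on the right of each panel, with the group mean and SD (n = 6 per group). HF mice lie above LF mice in every panel, and the vertical scale differs between panels.

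HF+P against HF addresses what eating the propagules did, and it rests on the second value set. No enzyme from squalene to cholesterol passed: 0 of 20 probe sets rose and 0 fell, with adjusted p between 0.504 and 0.991 (limma, Benjamini-Hochberg). Of all probe sets 0.00222% rose and 0% fell. Without adjustment, p was below 0.05 in 4 of the 20 probe sets and in 3125 of all 45037. The standardized difference was negative in 9 of 9 genes, with a median of -0.91, and in 19 of 20 probe sets, with a median of -0.73, against a median of -0.01 over all probe sets. After quantile normalisation 6 of the 9 were negative. In 0 of the 20 did the groups lie apart, against 0.162% of all probe sets with HF+P wholly above HF and 0.193% with HF+P wholly below.

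Fdft1 had the most negative value among the 9 genes. Fdft1 1438322_x_at read 9.8904, 9.8909 and 9.8913 (lowest, median and highest) in HF+P mice, against 9.8912, 9.8914 and 9.8914 in HF mice. HF+P mice 1, 2, 3 and 8 lay below every HF mouse, and mice 4 and 7 within their range. The difference was -1.62 SDs (-2.85 to -0.34; limma, Benjamini-Hochberg adjusted p = 0.575).

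Nsdhl read 8.7783, 8.7787 and 8.7791 in HF+P mice, against 8.7788, 8.7790 and 8.7792 in HF mice, a difference of -1.17 (-2.31 to 0.01; limma, Benjamini-Hochberg adjusted p = 0.710). Sqle read 7.496, 7.501 and 7.505 in HF+P mice, against 7.500, 7.504 and 7.506 in HF mice, a difference of -0.97 (-2.08 to 0.17; 0.760). For both genes the groups overlapped and the HF+P range was the wider. Tm7sf2 had -0.99, Cyp51 -0.91, Lss -0.63, Dhcr7 -0.24 and Hsd17b7 -0.10, and the intervals of these 5 genes included 0. Msmo1, which had separated HF from LF most clearly, read 9.797, 9.803 and 9.809 in HF+P mice, against 9.802, 9.806 and 9.808 in HF mice. Its HF+P range enclosed the HF range, and the difference was -0.68 (-1.75 to 0.42; limma, Benjamini-Hochberg adjusted p = 0.835). Among the other probe sets Cyp51 1422534_at had the most negative value, -2.02 (-3.36 to -0.63; 0.504), and Fdft1 1438918_at was positive, at 0.55.

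Both comparisons use the same 6 HF mice, so their values for a gene are not independent. They stand side by side as 10.1 and -0.68 for Msmo1, 9.997 and -0.63 for Lss, 8.84 and -0.91 for Cyp51, 6.90 and -1.17 for Nsdhl and 5.96 and -0.97 for Sqle, with HF against LF given before HF+P against HF. For Fdft1 they were 3.85 and -1.62, for Tm7sf2 3.27 and -0.99, for Dhcr7 2.84 and -0.24 and for Hsd17b7 2.61 and -0.10.  A p that misses the threshold does not show that HF+P and HF were alike.

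**Figure D3:**
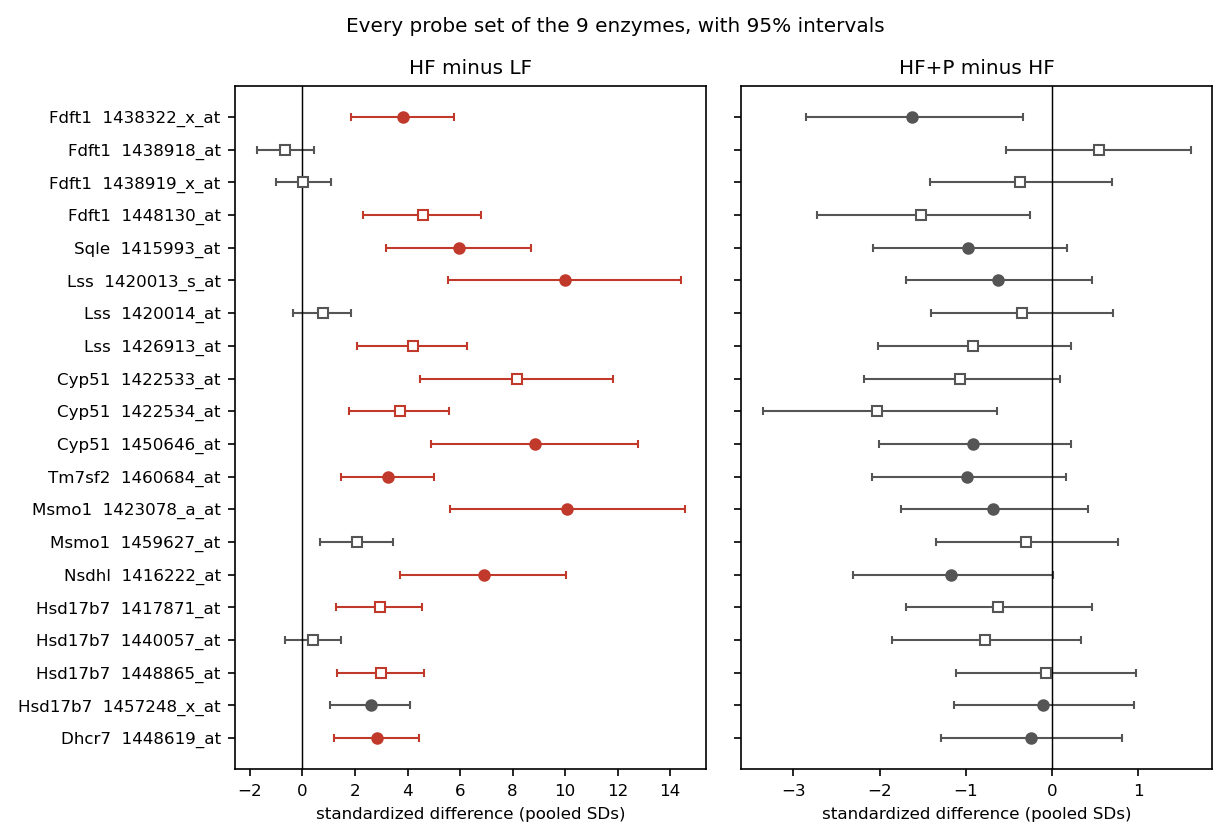
Standardized difference with its 95% interval for each of the 20 probe sets of the 9 genes. Each comparison has its own panel, with 6 mice per group. Filled circles mark the probe set that stands for each gene, open squares the others, and red a call. For the probe sets that stand for each gene, intervals for HF against LF lie above 0 in all 9. Those for HF+P against HF lie below 0 in Fdft1 alone and include 0 in the other 8. Among the open squares, intervals for HF against LF include 0 in Fdft1 1438918_at, Fdft1 1438919_x_at, Lss 1420014_at and Hsd17b7 1440057_at. Those for HF+P against HF lie below 0 in Fdft1 1448130_at and Cyp51 1422534_at.

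In the second value set, the HF+P values of these genes were more widely spread than the HF values. The SD within HF+P exceeded that within HF in 9 of 9 genes, with a median ratio of 2.13, and in 15 of 20 probe sets, while over all probe sets the median ratio was 0.968 and 47.3% lay above 1. No test was made of these ratios, and the same HF arrays had larger SDs in the first value set in all 9 genes. The 9 ratios are not independent, as pairs of these genes had a median r of 0.86 within HF+P. The spread had an order that recurred across genes. HF+P mouse 4 was the highest of its group in 6 of the 9 genes and mouse 7 in the other 3, and mouse 2 was the lowest in 7 genes and mouse 3 in the other 2.

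Set against the HF mice, HF+P mouse 2 lay below every HF mouse in 8 genes, mouse 3 in 7, mouse 1 in 5, mouse 8 in 4 and mouse 7 in 1. Mouse 4 lay above every HF mouse in Lss, Cyp51, Msmo1, Hsd17b7 and Dhcr7, and mouse 7 did so in Tm7sf2. In pooled SDs within groups, the mean distance from the HF mean over the 9 genes was -2.21 for mouse 2, -1.83 for mouse 3, -1.07 for mouse 1, -0.97 for mouse 8, 0.03 for mouse 7 and 0.77 for mouse 4. Mice 1, 2, 3 and 8 were below the HF mean in all 9 genes. Without mouse 4 the median difference was -1.38, negative in 9 of 9 genes, and 0 genes passed (limma, Benjamini-Hochberg adjusted p between 0.565 and 0.917). Lss had a value of -2.05 without that mouse and Cyp51 -2.04. Without HF+P mouse 2 the median was -0.71 and without mouse 3 it was -0.72, each with 8 genes negative and Hsd17b7 positive.

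**Figure D4:**
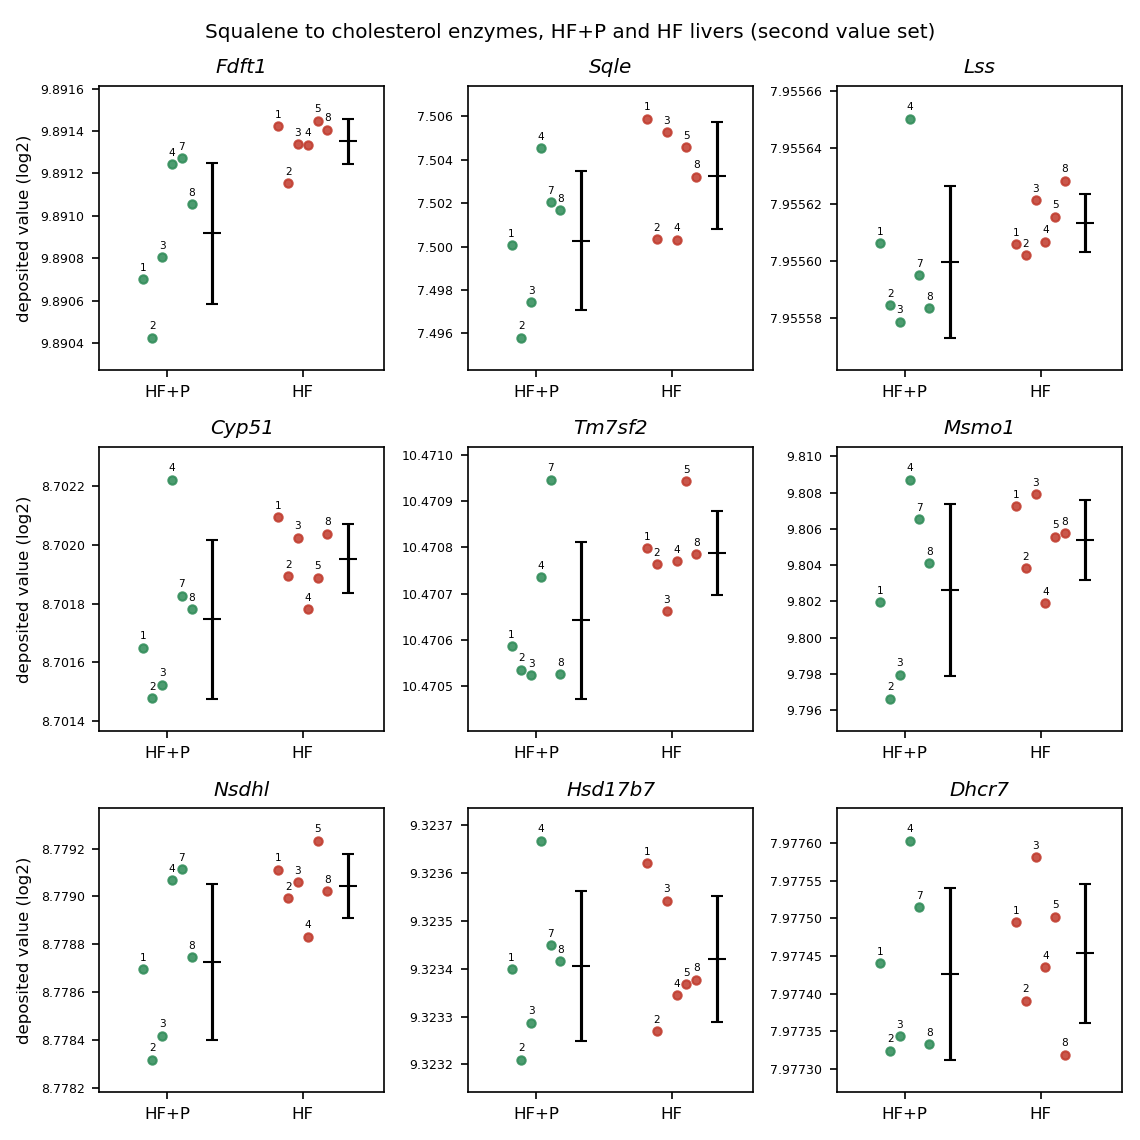
Deposited log2 value of each mouse in the second value set for the probe set that stands for each of the 9 genes, HF+P on the left and HF on the right of each panel, with the group mean and SD (n = 6 per group). The groups overlap in every panel, and the HF+P points are the more widely spread.

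**Figure D5:**
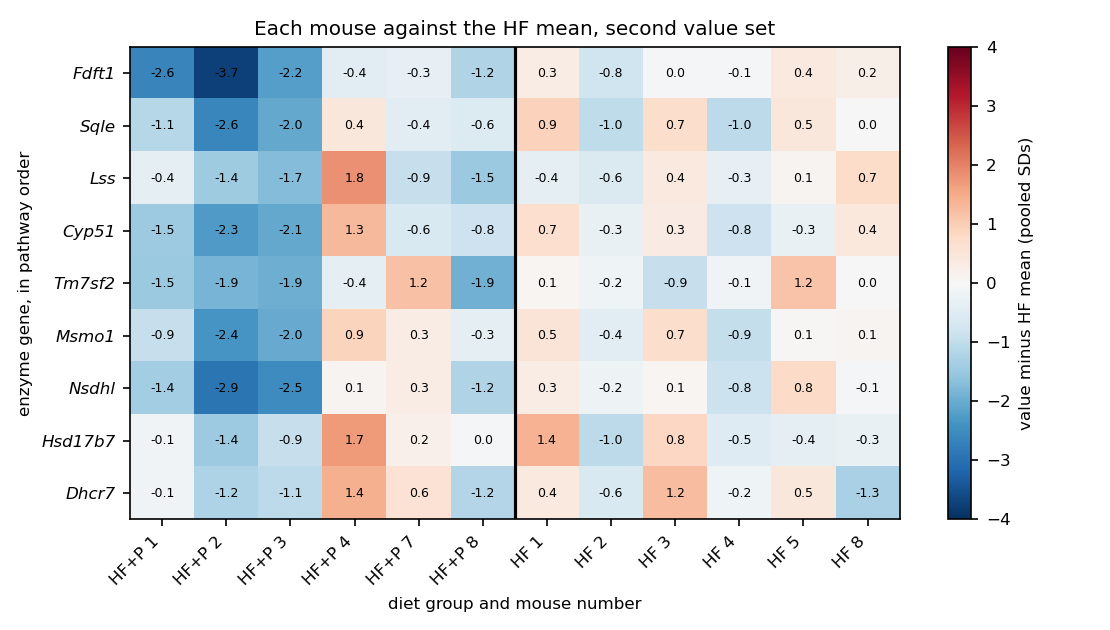
Distance of each HF+P and HF mouse from the HF mean for each of the 9 genes, in pooled SDs within groups, with HF+P mice left of HF mice. HF+P mice 1, 2, 3 and 8 are negative in every gene (-0.03 for mouse 8 in Hsd17b7, shown as 0.0), and mouse 4 is positive in 7 of 9.

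Processing the same 6 HF arrays with other partners moved these genes more than most. The mean HF value was higher in the second set than in the first for 8 of 9 genes and 17 of 20 probe sets, whereas 35.4% of all probe sets were higher. The shift was 1.41 for Msmo1, 1.32 for Cyp51, 0.88 for Nsdhl, 0.61 for Lss, 0.60 for Fdft1, 0.51 for Sqle, 0.42 for Hsd17b7 and 0.27 for Dhcr7, and it was -0.28 for Tm7sf2. The range from the 5th to the 95th percentile of all probe sets was -0.35 to 0.26. In all 9 genes the shift between value sets was larger in size than the deposited difference between HF and LF. That difference was largest in Msmo1, at 0.26, and was 0.038 in Cyp51.

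The spread of the same arrays also changed between the sets. The SD among HF mice was larger in the first set in all 9 genes, by 26.3 times in Cyp51, 19.2 times in Lss, 12.5 times in Msmo1 and as little as 1.33 times in Hsd17b7. The 6 HF mice kept the same order in both sets in 9 of the 20 probe sets, against 24.7% of all probe sets. Levels of HF+P and LF mice were therefore not set against each other. Standardized differences and p-values use the SDs of their own value set, so their size also depends on the processing.

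The enzymes before squalene rose with those after it in HF livers. Of 7 measured genes of that list of 9, 6 rose and 0 fell, with a median standardized difference of 3.69. Idi1, which isomerises isopentenyl diphosphate, rose by 7.80 (limma, Benjamini-Hochberg adjusted p = 7.40e-05), and Fdps, which makes the substrate of Fdft1, by 5.91. Mvk, mevalonate kinase, rose by 4.15 and Mvd, mevalonate diphosphate decarboxylase, by 3.69. The deposited difference of Mvd, 5.10e-05, was smaller than the 6.45e-05 shift of the column medians, so its direction, and with it 1 of the 6 rises, depends on the scaling. Ggps1, which sends the same precursors to geranylgeranyl diphosphate and not to sterols, had a value of -1.34 that did not pass. In HF+P against HF 0 of the 7 passed, 6 were negative and the median was -0.58.

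Among 4 measured genes of the 5 listed as other proteins after squalene, 2 rose and 0 fell in HF livers. Erg28, a scaffold known from yeast to tether the demethylating enzymes to each other, rose by 11.2 (6.24 to 16.1; limma, Benjamini-Hochberg adjusted p = 1.50e-05), more SDs than any of the 9 enzyme genes. Sc5d, a sterol desaturase, rose by 3.96 (adjusted p = 0.00803). Lbr, the lamin B receptor that shares its reductase reaction with Tm7sf2, had 2.61 (0.0529), and Ebp, a sterol isomerase, had 1.01. In HF+P against HF 0 of the 4 passed and all 4 values were negative, with a median of -0.64. Of 7 measured electron donors and protein regulators, of 8 listed, 0 rose and 0 fell in either comparison, and their medians were 0.49 with HF against LF, then -0.40 with HF+P against HF. Pgrmc1, a membrane heme protein that binds CYP51A1 in human cells, was the largest of these in HF against LF, at 2.23 (0.0884). The deposited differences of Pgrmc1 and Ebp, 7.42e-06 and 9.12e-07, were smaller than the 6.45e-05 shift of the column medians. Their direction in HF against LF therefore depends on the scaling.

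Of 7 measured genes of the SREBP pathway, of 9 listed, 4 rose and 1 fell in HF livers, and the median was 2.85. Insig1, which holds the SREBP complex in the endoplasmic reticulum and is itself an SREBP target, rose by 4.65, and Stard4, a sterol carrier, by 4.25. Scap, the sterol sensor that escorts SREBP, rose by 3.08 and Srebf2, which encodes SREBP-2, by 2.85 (limma, Benjamini-Hochberg adjusted p = 0.0289 and 0.0419). The deposited differences of Scap and Srebf2, 1.08e-05 and 1.04e-05, were smaller than the shift of the column medians, so their direction depends on the scaling. Insig2 fell by 2.68 (0.0483). In HF+P against HF 0 of the 7 passed, with 5 positive, 2 negative and a median of 0.26.

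Mouse by mouse, each gene was followed after removal of its group mean, over 18 mice, with HF taken from the first value set. Msmo1, Sqle and Nsdhl followed the mean of the other 8 genes most closely, with Pearson r of 0.86, 0.85 and 0.81. Fdft1 and Cyp51 had 0.72 each, Dhcr7 0.59, Tm7sf2 0.58, Lss 0.56 and Hsd17b7 0.52. These r values pool groups that differed. Within groups of 6 mice, the median r over the 36 pairs of the 9 genes was 0.26 in LF, 0.44 in HF and 0.86 in HF+P. The lowest pair had -0.78 in LF, -0.14 in HF and 0.40 in HF+P. Among 18184 other genes the profiles most like the mean of the 9 were those of Mvk (0.87), Fdps (0.86), Erg28 (0.77), Pom121l12 (0.76) and Map2k4 (0.76). The median over these genes was 0.005 and the 95th percentile 0.43. Of the 5, Pom121l12 and Map2k4 did not pass in either comparison, with -0.06 and -1.61 in HF against LF. These mice share their arrays' processing, so the r values are descriptions.

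In bulk liver, fewer cells of a type and less RNA per cell cannot be told apart. Markers of resident immune cells had values of the same sign as the 9 genes, without passing. The 5 Kupffer cell markers were positive in HF against LF (median 0.63) and negative in HF+P against HF (-0.61), and the 4 measured lymphocyte markers likewise (0.66 and -0.64), with 0 of these 9 called in either comparison. In HF against LF the deposited differences of the 4 lymphocyte markers were at most 3.81e-05, smaller than the 6.45e-05 shift of the column medians. Their direction there depends on the scaling. The mean Kupffer marker value ran from 8.534 to 8.550 in HF mice, against 8.534 to 8.556 in LF mice, and from 8.483 to 8.485 in HF+P mice, against 8.483 to 8.489 in HF mice. The mean lymphocyte marker value ran from 7.03052 to 7.03059 in HF mice, against 7.03052 to 7.03055 in LF mice, and from 6.95039 to 6.95042 in HF+P mice, against 6.95039 to 6.95045 in HF mice. The ranges overlapped for each list in each comparison. Of 18 measured markers of stellate, endothelial, bile duct, pancreatic acinar, fat and red blood cells, 0 were called in either comparison. Cd3e, a subunit of the T cell receptor complex singled out after its values were seen, had -2.15 (-3.51 to -0.72) in HF+P against HF, with every HF+P mouse below every HF mouse, and did not pass (limma, Benjamini-Hochberg adjusted p = 0.510). The part of these markers in the result was not tested.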

How the data were processed

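Liver RNA of 18 mice was measured on 3′ expression arrays, 6 mice per group, grouped by the labels. Trizol RNA was amplified and biotinylated with a 3′ in vitro transcription kit, per the labels' protocols. The deposited table holds log2 values of 45101 probe sets in 24 columns, made by the authors as 2 value sets of 12. R 2.7.2 was used, per the submitters' processing notes. How probe sets were summarised and normalised, and the log base, is not stated in any source used here. The log2 reading rests on the range of 5.36 to 15.0.

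The 64 control probe sets were left out. Of the 45037 tested, 34945 carried 1 symbol (18193 genes), 932 several, and 9160 were not listed in the annotation. Both comparisons used limma 3.58.1 under R 4.3.3 (lmFit, then eBayes), two-sided, with Benjamini-Hochberg adjustment over all probe sets, and a call is an adjusted p below 0.05. The fit was tested on simulated data. Standardized differences carry Hedges' correction for 10 degrees of freedom and a 95% noncentral t interval. The number of arrays limits the precision.

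Members, gene lists and tests were chosen with earlier results of these data known. All 9 genes are named, with up to 4 genes of each pathway list by size and the 5 genes most alike by r. Promoters were to be printed for members with the SREBP letters. As 0 had them, the 4 with the largest differences are shown instead, a choice made after the motif result was seen. Listed genes without a matched probe set were not analysed here. Alternatives were quantile normalisation, median centring, 1 probe set per gene, leaving out the dimmer probe sets, trend and robust settings, a threshold of 0.1, a block for mouse number, and each mouse left out in turn.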

Additional observations from a re-analysis of the deposited data

Results flagged for a closer look

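Among 60 groups of 6 mice, 1 mouse stood far from the rest in 3, where chance gives about 1 in 20. For Cyp51 1422533_at, LF mouse 8 read 6.578 against 6.566 to 6.570 in the other LF mice, a gap of 0.664 of the group's range. For Cyp51 1422534_at the same LF mouse read 6.29503 against 6.29493 to 6.29496, a gap of 0.641 of the range. For Hsd17b7 1448865_at, HF+P mouse 4 read 8.44889 against 8.44882 to 8.44884 in the other HF+P mice, a gap of 0.642 of the range.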

How the results depend on the processing

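In HF against LF, the 14 probe sets called higher became 10 to 14 when 1 mouse was left out, and the 8 genes became 6 to 8. The number called lower was 0 as reported, 1 after quantile normalisation and 4 with median centring. Hsd17b7 1448865_at turned to -1.15 after quantile normalisation. Labels of mice recur between groups. The deviations of same-numbered mice had r from -0.13 to 0.10 for HF with LF and 0.03 to 0.21 for HF+P with HF. Such r values cannot show whether same-numbered mice shared more than a number. With the mouse number as a replicate block, 10 probe sets and 6 genes were called higher; the genes not called were Fdft1 (adjusted p = 0.0584), Dhcr7 (0.0666) and Tm7sf2 (0.0804), and Hsd17b7 was called (0.0460). Fdft1 1448130_at (0.0531) and Cyp51 1422534_at (0.0546) were not called with it either. Of 45037 probe sets the block gave 109 higher and 137 lower, against 121 and 181. Other totals of higher and lower calls were 174 and 6592 after quantile normalisation, 322 and 42047 with median centring, 193 and 375 without the dimmer probe sets, 313 and 548 at a threshold of 0.1, 57 and 74 without LF mouse 5, and 120 and 205 without HF mouse 5.

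In HF+P against HF, 0 member probe sets were called under every alternative run. Signs turned after quantile normalisation for Fdft1 1448130_at (0.21), Lss 1420013_s_at (0.14), Tm7sf2 1460684_at (0.53), Hsd17b7 1448865_at (0.94) and Hsd17b7 1457248_x_at (0.49), and with median centring for Hsd17b7 1448865_at (0.058). When 1 mouse was left out, Hsd17b7 1448865_at ran from -0.44 to 0.33 and Hsd17b7 1457248_x_at from -0.52 to 0.17. The cause was not tested. Quantile normalisation sets values by rank, and array signal over background is not in the values used here.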
